A study of Mus musculus with 4 samples.

Results

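This report describes 30 genes of homologous recombination and of the Fanconi anaemia pathway in cultured mouse hair follicle mesenchymal cells at low and at high passage. The genes were chosen by name, as members of these pathways, with earlier results of these data known, and each of the 30 symbols matched 1 row among the 51826 gene IDs of the deposited count table. All 30 passed the filter on low counts (raw counts averaging 10 or more across the libraries), as did 16734 genes in total. Dermal papilla cells (DPCs) come from the mesenchymal condensate inside the hair bulb, and dermal sheath cells (DSCs) from the connective tissue that wraps the follicle. Vibrissa follicles were the source of both, from EGFP-transgenic C57BL/6J mice aged 5 to 6 weeks, while the sample labels give the genotype as WT. The groups were low-passage DPCs and DSCs, taken at passage 3, and high-passage DPCs and DSCs, taken at passage 9, with no other treatment. Each of the 4 groups was sequenced as 1 library, so no difference between groups has a replicate check, and culture, passage and library preparation cannot be told apart.

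Homologous recombination repairs a broken chromosome by copying the intact sister chromatid. Broken ends are first trimmed to single strands, BRCA1, PALB2 and BRCA2 then help to coat the strand with a protein filament that searches for the matching sequence, and helicases and nucleases take the joined molecules apart. The Fanconi anaemia pathway unhooks crosslinks between DNA strands at stalled replication forks: a multi-protein core complex attaches ubiquitin to FANCD2 and FANCI, and the break made during unhooking is repaired by recombination. Because a sister chromatid is needed, these pathways act in S and G2 phase, and many of the genes are known to be transcribed mainly in dividing cells. End joining, the other main route of break repair, needs no sister and runs throughout the cell cycle.

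The libraries held 34981284 to 47604059 counts. Counts of the 30 genes lay between 34 and 1477 in a library, and none was at 0. The labelled cell types were checked against markers: the mesenchymal genes Pdgfra, Pdgfrb, Col1a1, Col1a2, Vim and Thy1 had at least 3281 counts each in every library. The markers of the papilla and of the sheath did not separate the labelled cell types in one direction. Counts are given for low- and high-passage DPCs, then for low- and high-passage DSCs. Of 6 papilla markers, Sox2 was higher in DPCs at both passages (1677, 1491, 269 and 178 counts), Ncam1 was higher in DSCs (3642, 1673, 11755 and 15584), and Vcan was lower in DPCs at low and higher at high passage (4134, 3447, 5272 and 2913). The paper reports NCAM and SOX2 staining in DPCs and in DSCs, so neither is specific to the papilla in this study. Lef1 had 508, 2, 101 and 55 counts, while Alpl had at most 23 and Corin at most 10 in a library. Of 3 sheath markers, Acta2 (262118, 67135, 217199 and 197315), Tagln (69654, 21597, 60254 and 65077) and Myh11 (2882, 168, 1063 and 3160) each had more counts in DPCs than in DSCs at low passage and fewer at high passage. Keratinocyte markers summed to at most 4 counts in a library.

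At passage 9, most of the 30 listed recombination and Fanconi genes were lower than at passage 3, with the larger median fall in DPCs. In DPCs 24 were lower and 6 higher, where 48.7% of all genes tested were lower. In DSCs 25 were lower and 5 higher, where 49.7% of all genes were lower. Changes were spread from -2.56 for Exo1 to 0.62 for Slx4 in DPCs and from -2.01 for Rad54b to 0.27 for Mus81 in DSCs. The median change of the 30 genes, as a difference of log2 CPM (counts scaled to library size) between passage 9 and passage 3, was -1.22 in DPCs (2.32-fold lower) and -0.81 in DSCs (1.76-fold lower). The median over all genes tested was 0.03 in DPCs and less than 0.01 away from 0 in DSCs. Summed over the 30 genes, DPCs had 352 CPM at low and 242 at high passage, and DSCs had 325 and 235.

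A gene was called where it differed at least 2-fold between a pair of libraries, and the 4-fold limit of the study was set beside it. In DPCs 17 of the 30 genes were at least 2-fold lower at passage 9, against 15% of all genes tested. In DSCs the number was 10 of 30, against 6.21% of all genes, and 9 genes were at least 2-fold lower in both cell types, against 3.54%. At the 4-fold limit 7 genes were lower in DPCs (background 4.36%) and 1 in DSCs (1.16%), and that one, Rad54b, was the single member past 4-fold in both (0.508%). These 4-fold counts were smaller under some other processing choices, which are given at the end. No member was 2-fold higher in either cell type, where 16.1% of all genes were in DPCs and 8.55% in DSCs. For counting error, 95% intervals came from 1 library's share of the reads of the pair (exact, Clopper-Pearson). They compare 2 libraries and not 2 conditions. The interval lay below 0 for 22 genes in DPCs and 24 in DSCs, above 0 for 5 and 3, and included 0 for 3 in each cell type. The share of all genes tested with such intervals was not computed, so these counts are not a trait of the members.

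**Figure D1:**
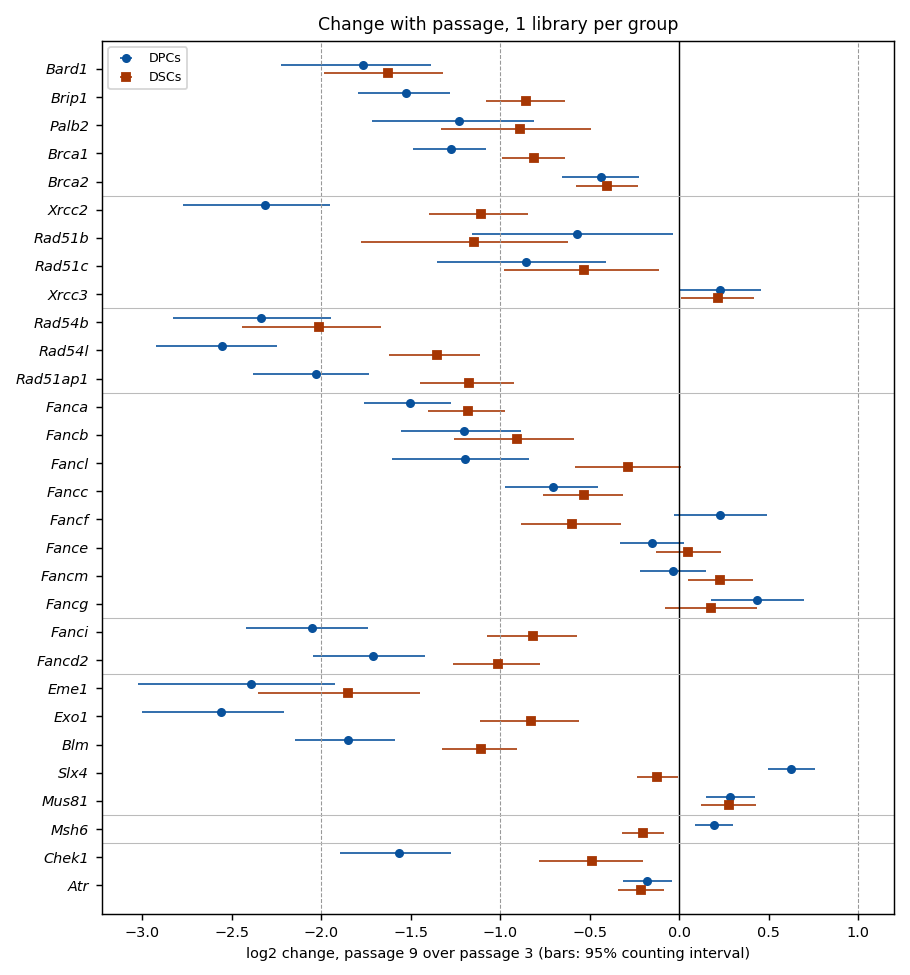
The horizontal axis gives the log2 change from passage 3 to passage 9 for each of the 30 genes, grouped by role, with DPCs as circles and DSCs as squares; bars are 95% counting intervals and dashed lines mark 2-fold and 4-fold. Of the 30 genes, 17 in DPCs and 10 in DSCs lie at or left of the 2-fold line on the lower side, and none reaches it on the higher side.

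Genes that help the trimmed strand invade its partner moved most. Rad54l (ENSMUSG00000028702, chromosome 4, 116094264 to 116123690 on GRCm38) encodes RAD54, a motor protein that works along DNA during strand exchange. DPCs held 533 counts of it at low and 87 at high passage, and DSCs 410 and 191, the order in which counts are given from here on. Both high-passage libraries were below both low-passage ones, and the change was -2.55 (95% interval -2.92 to -2.25) in DPCs and -1.36 (-1.62 to -1.12) in DSCs. Its relative Rad54b (ENSMUSG00000078773, chromosome 4, 11558922 to 11615805) had 282, 53, 251 and 73 counts. Its log2 change was -2.34 (interval -2.83 to -1.95) for DPCs and, just past 4-fold, -2.01 (-2.44 to -1.67) for DSCs. In Rad54b 35.8% of exonic bases are shared with Fsbp on the same strand, so some of its reads may belong to that gene. Rad51ap1 (ENSMUSG00000030346, chromosome 6, 126923050 to 126939587), whose product stimulates strand exchange, had 421, 99, 346 and 183 counts. The DPC change was -2.03 (-2.38 to -1.73) and the DSC change -1.17 (-1.45 to -0.92). Over the 3 genes the DPC median was -2.34 and the DSC median -1.36.

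The 4 genes Rad51b, Rad51c, Xrcc2 and Xrcc3, whose products form small complexes that help strand exchange, were uneven. Xrcc2 (ENSMUSG00000028933, chromosome 5, 25689812 to 25705825) had 314, 60, 313 and 173 counts. It was 4.98-fold lower in DPCs, at -2.32 (-2.77 to -1.95), and 2.16-fold lower in DSCs, at -1.11 (-1.40 to -0.85). Xrcc3, from another complex of the family, had 309, 353, 340 and 474 counts and did not go down in either cell type. Its changes were 0.23 (0.00 to 0.45) in DPCs and 0.21 (0.01 to 0.42) in DSCs. Rad51b was the only member past 2-fold in DSCs and not in DPCs, with 71, 46, 76 and 40 counts and changes of -0.57 (-1.16 to -0.03) and -1.15 (-1.78 to -0.62). These intervals overlap. Rad51c had 111, 59, 102 and 84 counts, and its changes of -0.86 and -0.53 did not reach 2-fold.

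Among the BRCA complexes, the 5 genes were all lower at passage 9 in both cell types, with medians of -1.28 in DPCs and -0.85 in DSCs. Brca1 (ENSMUSG00000017146, chromosome 11, 101488764 to 101551955), a ubiquitin ligase that promotes end trimming, had 704, 282, 669 and 457 counts. It fell 2.43-fold in DPCs (-1.28, interval -1.49 to -1.08), and in DSCs it was 1.76-fold lower (-0.81, -0.99 to -0.64). Bard1 (ENSMUSG00000026196, chromosome 1, 71027498 to 71103146), the obligate partner of BRCA1, had 221, 62, 274 and 105 counts. Its fall was 3.40-fold in DPCs and 3.09-fold in DSCs, the closest match between the cell types among the genes that passed 2-fold in both, with -1.77 (-2.23 to -1.39) against -1.63 (-1.99 to -1.32). Brip1, a helicase that binds BRCA1, had 508, 171, 426 and 282 counts, and Palb2, the bridge from BRCA1 to BRCA2, had 147, 60, 125 and 80. Both passed 2-fold in DPCs, at -1.52 and -1.23, and missed it in DSCs, at -0.85 and -0.89. Brca2, whose product acts on the trimmed single strand, stood apart from its partners. It had 431, 310, 568 and 516 counts, with changes of -0.44 (-0.65 to -0.23) and -0.40 (-0.58 to -0.23).

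Fancd2 (ENSMUSG00000034023, chromosome 6, 113531682 to 113597017) and Fanci (ENSMUSG00000039187, chromosome 7, 79391929 to 79450264) encode the pair of proteins that receive ubiquitin and clamp onto DNA. Fancd2 had 377, 111, 378 and 224 counts and fell in both cell types, with log2 changes of -1.71 (-2.05 to -1.42) for DPCs and -1.01 (-1.26 to -0.78) for DSCs. Fanci had 389, 90, 328 and 223 counts, with -2.05 (-2.42 to -1.74) in DPCs and -0.82 (-1.07 to -0.57) in DSCs. The 8 genes of the core complex and its anchor had medians of -0.43 and -0.41. Their range overlapped the values of Fancd2 and Fanci, and the difference was not tested. In the group 3 genes passed 2-fold in DPCs, and Fanca was the single one to pass in both cell types. Fanca (ENSMUSG00000032815, chromosome 8, 123268300 to 123318576) had 557, 190, 529 and 279 counts and changed by -1.51 (-1.76 to -1.28) and -1.18 (-1.40 to -0.98).

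Fancb, a scaffold of the ligase module, had 255, 107, 194 and 123 counts, and Fancl, the ubiquitin ligase subunit, had 198, 83, 195 and 192. Both were called lower in DPCs, at -1.20 each. In DSCs Fancb was at -0.91 (-1.26 to -0.59), and Fancl was at -0.28 with an interval (-0.58 to 0.01) that included 0. Fancc had changes of -0.71 (-0.97 to -0.45) and -0.53 (-0.76 to -0.31), short of 2-fold in both. Fance, which recruits the FANCD2 protein, had 543, 476, 448 and 557 counts, and both of its intervals included 0. Fancm, the translocase that anchors the core complex to DNA, had 500, 475, 418 and 589 counts, with -0.04 (-0.22 to 0.15) and 0.23 (0.05 to 0.41). Fancg, an adaptor that binds FANCA directly, had 217, 286, 221 and 300 counts. Its changes were 0.43 (0.17 to 0.70) in DPCs and 0.17 (-0.08 to 0.43) in DSCs. Fancf, which has a single exon, had 230, 263, 244 and 193 counts, and its changes were 0.23 (-0.03 to 0.49) and -0.60 (-0.88 to -0.33).

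Enzymes that trim ends and resolve joined molecules covered nearly the whole range of the 30 genes. Exo1 (ENSMUSG00000039748, chromosome 1, 175880581 to 175913489), the exonuclease of long-range end trimming, had 390, 63, 272 and 183 counts. Its fall of 5.89-fold in DPCs (-2.56, -3.002 to -2.21) was the largest of any member, while in DSCs it was 1.78-fold lower (-0.83, -1.12 to -0.56). Eme1 (ENSMUSG00000039055, chromosome 11, 94644996 to 94653964), the regulatory partner of the MUS81 nuclease, had 191, 34, 173 and 56 counts and fell 5.25-fold in DPCs (-2.39, -3.03 to -1.92) and 3.60-fold in DSCs (-1.85, -2.35 to -1.45). Blm (ENSMUSG00000030528, chromosome 7, 80454733 to 80535119), the Bloom syndrome helicase, had 515, 138, 530 and 294 counts, with -1.85 (-2.15 to -1.59) and -1.11 (-1.33 to -0.91). The catalytic subunit Mus81 did not fall, with 800, 951, 587 and 854 counts and changes of 0.29 (0.15 to 0.42) and 0.27 (0.12 to 0.43). Slx4, the scaffold on which structure-specific nucleases gather, had 780, 1174, 1182 and 1303 counts. Its change was 0.62 (0.49 to 0.76) in DPCs, the highest of the 30, and -0.12 (-0.24 to -0.01) in DSCs.

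Of the checkpoint kinases, Chek1 passed 2-fold in DPCs, and Atr passed it in neither cell type. Chek1 (ENSMUSG00000032113, chromosome 9, 36708482 to 36727065), the kinase that holds the cell cycle when replication stalls, had 353, 115, 218 and 186 counts. It fell 2.96-fold in DPCs (-1.57, -1.90 to -1.27), and its change in DSCs was -0.49 (-0.78 to -0.21). Atr, the kinase that activates CHK1, had 930, 801, 972 and 1007 counts. Its changes were -0.18 (-0.32 to -0.04) in DPCs and -0.21 (-0.34 to -0.09) in DSCs. With the deposited FPKM, a level per transcript length, the Atr change was 0.63 in DPCs, the other direction, and -0.12 in DSCs. Msh6, which recognizes mismatched bases, had the highest count of any member in DPCs, with 1325, 1477, 1153 and 1202 counts and changes of 0.19 (0.08 to 0.30) and -0.20 (-0.32 to -0.09).

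Ratios between partner genes within a library do not depend on how libraries are scaled. They were chosen after the values were seen and are given with approximate 95% counting intervals. Eme1 counts per Mus81 count went from 0.239 to 0.0358 in DPCs and from 0.295 to 0.0656 in DSCs. The ratio was 6.68-fold lower at high passage in DPCs (log2 -2.74, -3.28 to -2.20) and 4.49-fold lower in DSCs (-2.17, -2.63 to -1.71). On the deposited FPKM it went from 0.156 to 0.0386 in DPCs, a smaller fall, and from 0.226 to 0.0472 in DSCs. Eme2, the alternative partner of MUS81 and no member, had a ratio to Mus81 that moved by 0.22 (0.03 to 0.41) and 0.15 (-0.05 to 0.35). For Fanca per Fancg the DPC ratio moved by -1.95 (-2.30 to -1.60) and the DSC ratio by -1.36 (-1.69 to -1.04). The interval for Fancd2 per Fanci included 0 in DPCs (0.35, -0.10 to 0.80) and in DSCs (-0.20, -0.54 to 0.14). For Chek1 per Atr the DPC ratio moved by -1.40 (-1.74 to -1.07) and the DSC ratio by -0.28 (-0.59 to 0.03). On the deposited FPKM the Chek1 per Atr ratio fell from 0.906 to 0.232 in DPCs and rose from 0.562 to 0.598 in DSCs. Palb2 per Brca2 moved by -0.82 (-1.30 to -0.34) and -0.51 (-0.95 to -0.07). Bard1 per Brca1 moved by -0.51 (-0.97 to -0.06) and -0.83 (-1.20 to -0.47).

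**Figure D2:**
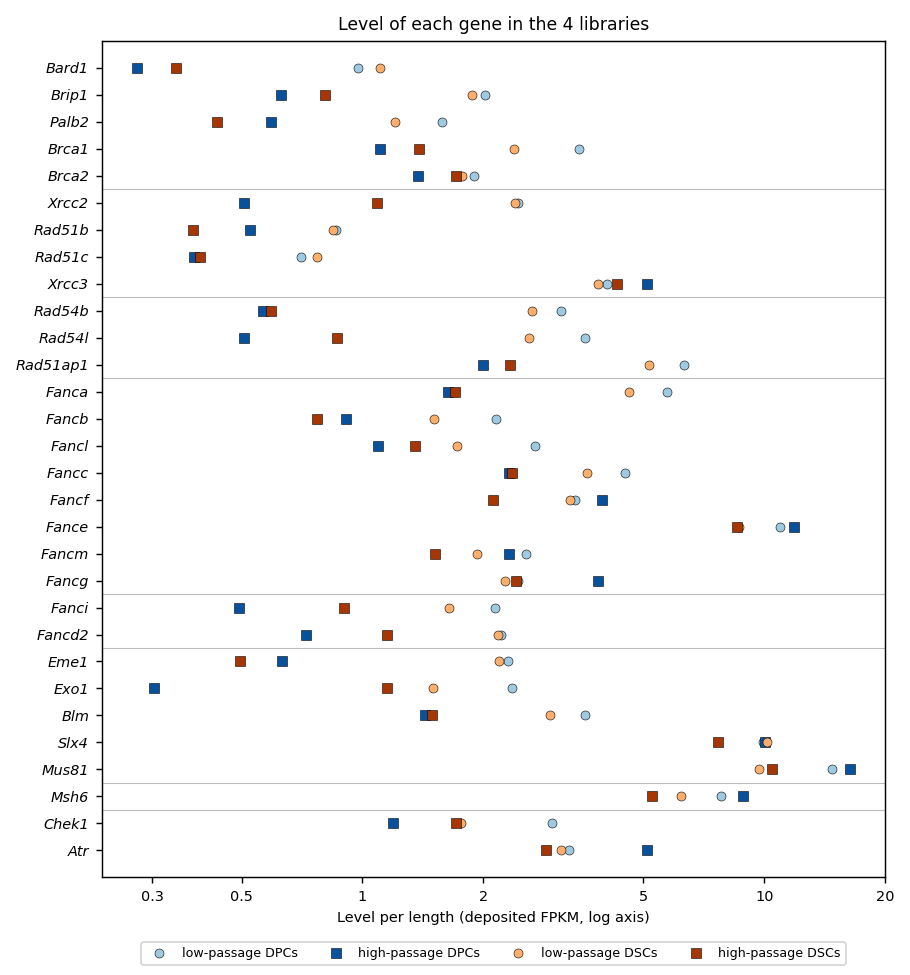
The horizontal log axis gives the deposited FPKM of each gene, a level per transcript length, in each of the 4 libraries, with circles for low and squares for high passage. Genes that fell, such as Rad54l and Eme1, have both squares left of both circles, while Mus81, Slx4, Fance and Msh6 stay at 5 FPKM or more in every library.

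Levels can be compared between genes only per length, for which the deposited FPKM (fragments scaled to transcript length and library size) was used. In low-passage DPCs the 30 genes ranged from 0.703 FPKM for Rad51c to 14.7 for Mus81, with a median of 2.83, and in low-passage DSCs the median was 2.32. The medians at high passage were 1.15 FPKM in DPCs and 1.44 in DSCs. Mus81, Slx4, Fance and Msh6, 4 genes that were not called with passage, had the highest levels at passage 9 in both cell types. At passage 9 in DPCs the lowest levels were those of Bard1 (0.275 FPKM), Exo1 (0.302) and Rad51c (0.380), in DSCs those of Bard1 (0.344), Rad51b (0.378) and Rad51c (0.395). Without replicates, the order of neighbouring levels could not be set against a spread. The level at low passage and the mean change over both cell types had a Spearman rho of 0.33 across the 30 genes, a description of genes that share libraries.

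Most members changed further downward in DPCs than in DSCs, on 1 library each. The difference between the changes, DPCs minus DSCs, was below 0 for 22 of the 30 genes, with a median of -0.32 against -0.01 over all genes tested. Its approximate 95% counting interval lay below 0 for 13 genes and above 0 for 3, and the share over all genes tested was not computed. Exo1 had the largest gap, -1.73 (-2.20 to -1.26), followed by Fanci at -1.24 (-1.65 to -0.83), Xrcc2 at -1.21 (-1.69 to -0.73) and Rad54l at -1.20 (-1.61 to -0.79). Chek1, at -1.08 (-1.49 to -0.66), and Fancl, at -0.92 (-1.38 to -0.45), had most of their change in DPCs. The intervals included 0 for Rad54b (-0.32, -0.89 to 0.24), Eme1 (-0.54, -1.22 to 0.14), Bard1 (-0.14, -0.66 to 0.38) and Rad51b (0.57, -0.19 to 1.34). Genes kept much of their order: the correlation of DPC with DSC changes across the 30 genes was 0.82 (Pearson) and 0.81 (Spearman), against 0.47 and 0.52 over all genes tested. These are correlations across genes of the same 4 libraries and carry no test.

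**Figure D3:**
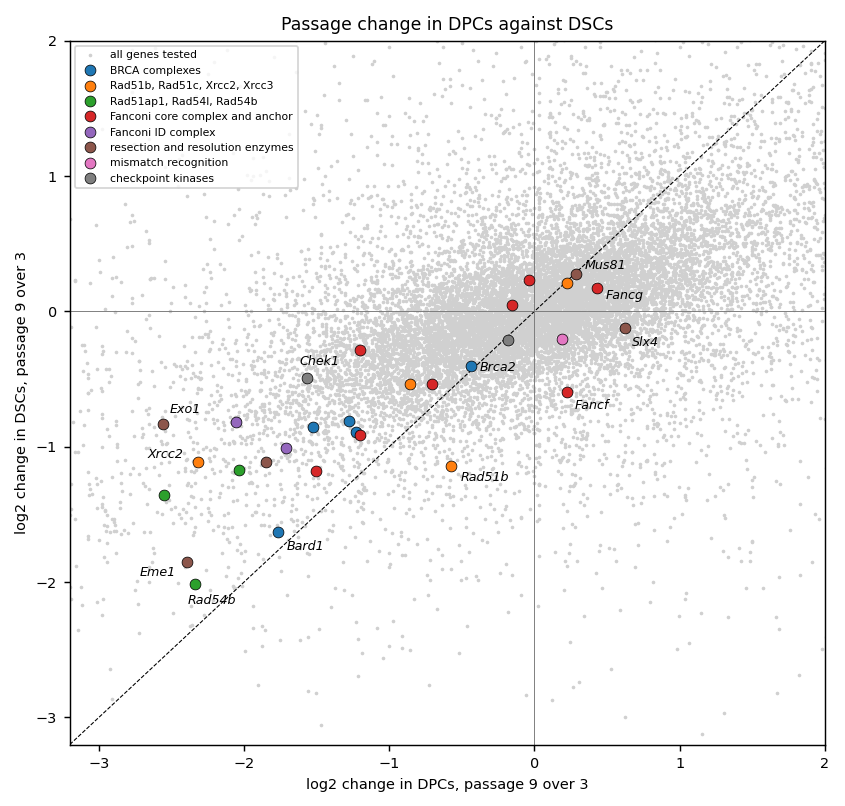
The axes give the log2 change from passage 3 to passage 9 in DPCs (horizontal) and in DSCs (vertical), with the 30 genes coloured by role over all genes tested in grey and the dashed line marking equal change; the axes are limited to the range of the members, so grey points beyond it are not drawn. Of the 30 members, 22 lie above the dashed line where changes were lower in DPCs, among them Exo1 and Xrcc2.

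DPCs and DSCs were also compared at each passage. At passage 3 none of the 30 genes differed 2-fold between the cell types, where 13.3% of all genes did. The median difference was 0.14, against 0.002 over all genes tested. In DPCs 22 genes were higher and 8 lower (26.7%), where 49.5% of all genes were lower. The largest gaps were those of Chek1, at 0.73 (0.49 to 0.99) on 353 against 218 counts, of Exo1, at 0.56 (0.34 to 0.79), and of Slx4, at -0.56 (-0.69 to -0.42). At passage 9 the median was -0.23, with 20 genes lower in DPCs. The 2 genes past 2-fold, against 20.1% of all genes, were Exo1 at -1.17 (-1.63 to -0.77) and Xrcc2 at -1.16 (-1.63 to -0.75), both lower in DPCs. Mus81 was higher in DPCs at both passages, with 0.49 (0.33 to 0.65) and 0.50 (0.37 to 0.63), and Brca2 was lower at both, with -0.35 (-0.54 to -0.17) and -0.39 (-0.60 to -0.18). These comparisons use the same libraries as the passage comparisons.

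**Figure D4:**
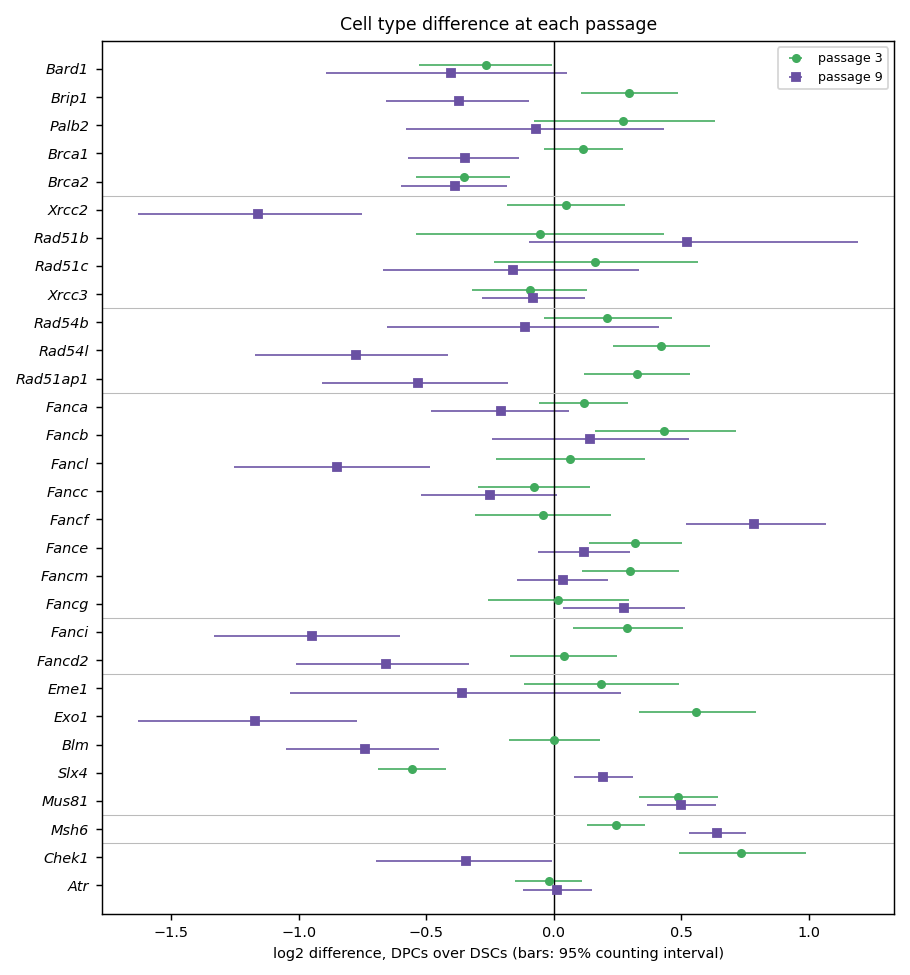
The horizontal axis gives the log2 difference of DPCs over DSCs for each gene at passage 3 (circles) and passage 9 (squares), with 95% counting intervals as bars. Points for Exo1, Xrcc2, Fanci, Rad54l and Chek1 move from 0 or above at passage 3 to below 0 at passage 9, while those of Mus81 and Brca2 stay in place.

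Passage was also fitted beside cell type, without an interaction, over all genes with edgeR's quasi-likelihood test, with Benjamini-Hochberg adjustment. Its 1 residual degree of freedom measures unequal responses of DPCs and DSCs, not replicate cultures. No gene passed an adjusted p of 0.05, members included, and the smallest adjusted p of a member was 0.188, for Rad54b. Without adjustment 2822 genes (16.9%) had a p under 0.05, with 7.79% of all genes in the lower direction. Among members there were 14, all lower at passage 9. These were the 9 genes called in both cell types together with Exo1, Fanci, Brip1, Fancb and Brca1. With DESeq2, a Wald test of the same terms, 8 members had an adjusted p under 0.05, all lower, where 5.71% of all genes passed and 2.71% were lower. They were Rad54b, Rad54l, Eme1, Blm, Rad51ap1, Fanca, Bard1 and Xrcc2.

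The rest of the pathway moved less. Of 48 other homologous recombination and Fanconi genes 46 were tested, with medians of -0.27 in DPCs and -0.18 in DSCs, and 6 were at least 2-fold lower in both. The lowest by mean change were Rmi2, a subunit of the BLM complex, on 50, 16, 47 and 6 counts, at -1.50 (-2.52 to -0.77) and -2.82 (-4.75 to -2.01), and BC030867 (also called Hrob), which loads the MCM8 and MCM9 helicase, at -1.99 and -1.43. The highest were Mcm9, at 1.06 in DPCs and less than 0.01 away from 0 in DSCs, and Slx1b, the nuclease that SLX4 activates, at 0.91 and 0.12. Of 18 checkpoint and mediator genes 2 were 2-fold lower in DPCs, 1 in DSCs and 1 in both, with medians of -0.19 and -0.25. Of 6 mismatch repair genes 1 was 2-fold lower in DPCs and none in both, with medians of -0.02 and -0.24. Beside the 3.54% of all genes tested that were lower in both, these 2 lists are too short for a contrast.

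End joining genes did not show the median fall of the members. The medians of 13 genes were -0.10 in DPCs and 0.13 in DSCs, with 8 genes lower in DPCs and 5 in DSCs. None was 2-fold lower in either cell type, where 15% and 6.21% of all genes tested were. At least 2-fold higher were 2 genes in DPCs and 1 in DSCs, where 16.1% and 8.55% of all genes were. Dclre1c, which encodes the Artemis nuclease, was higher in both, with 309, 1273, 310 and 794 counts and changes of 2.07 (1.90 to 2.26) and 1.09 (0.90 to 1.29). Polm, a polymerase that fills gaps at joined ends, changed by 1.07 (0.91 to 1.22) and 0.49 (0.35 to 0.64). Xrcc6, which encodes KU70, changed by -0.14 and -0.44.

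Genes of DNA replication and of mitosis moved with the members. Of 37 replication genes 36 were lower in DPCs and 36 in DSCs, with medians of -1.22 and -0.78, and all 25 mitotic genes were lower in both, with medians of -2.80 and -1.31. Mki67, a marker of dividing cells, had 6875, 1867, 6743 and 3333 counts and changed by -1.84 (-1.92 to -1.77) and -1.28 (-1.34 to -1.22). Top2a changed by -2.15 and -1.28, Mcm2 by -1.75 and -0.97, and Pcna by -0.999 and -0.55. In bulk RNA, fewer dividing cells and less of these transcripts per cell cannot be told apart. Leukocyte markers also moved: 5 of 5 were lower at passage 9 in both cell types, and their summed level went from 114 to 63.8 CPM in DPCs and from 164 to 92.3 CPM in DSCs, with none at 0. Endothelial markers summed to at most 2.48 CPM in a library and Schwann cell markers to at most 13.7 CPM, with Cdh5 and Sox10 at 0 in both high-passage libraries, and of melanocyte markers Dct, Tyrp1 and Mlana were at 0 throughout, leaving a sum of at most 1.03 CPM. The part of these cells in the result was not tested.

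**Figure D5:**
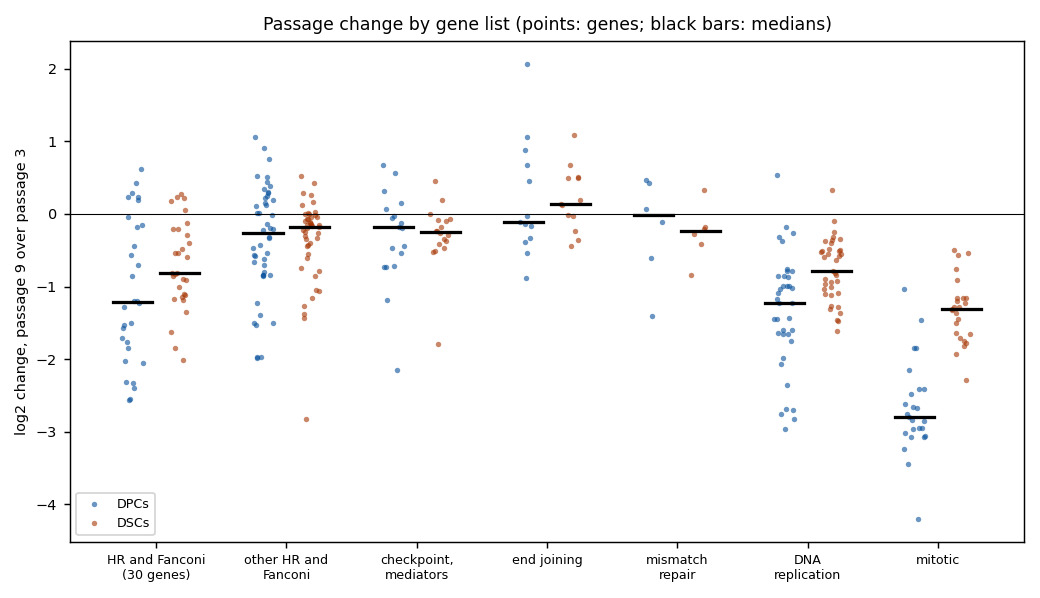
Each point is a gene and the vertical axis its log2 change from passage 3 to passage 9 in DPCs (left of each pair) or DSCs (right), with black bars for medians, for the 30 genes and 6 other lists. Medians of the 30 genes (-1.22 and -0.81) lie beside those of DNA replication (-1.22 and -0.78), above those of mitotic genes (-2.80 and -1.31), and below those of end joining genes (-0.10 and 0.13).

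Promoter sequences were examined because the members moved together and because E2F factors, which bind sites of the form shown here, are known regulators of S phase genes. RefSeq windows on GRCm38.p6 were used for 26 of the 30 genes (not for Exo1, Rad54b, Xrcc2 and Fancd2) and were searched over the 250 bases before the start, on both strands. E2F-type sequences (the letters TTCCCGC, the letters TTGGCGC, the letters TTCGCGC or the letters TTGCCGC) were found in 8 of 26 members (30.8%), against 15.7% of 10982 tested genes with a window and 9.01% of all genes with one. Of the 6 members with a window that fell 2-fold in both cell types 2 held one, and of the other 20 members 6 did. The CCAAT sequence, which NF-Y binds, was found in 15 of 26 (57.7%), against 40.3% of the tested genes, in 4 of the 6 and in 11 of the 20. The cell cycle homology region sequences TTTGAA and TTCGAA were found in 2 of 26 (7.69%), against 14.7%. A match is a description of letters and not a bound site.

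To show the E2F-type matches, 80-base stretches before the RefSeq start are printed 5′ to 3′ on the strand of the gene, with those matches in capitals, for genes at least 2-fold lower in DPCs (Bard1 on chr1:71103138-71103217, Blm on chr7:80535098-80535177 and Fancb on chrX:164980383-164980462) and for genes that did not reach that limit (Brca2 on chr5:150522416-150522495, Fancg on chr4:43010310-43010389 and Fancm on chr12:65075486-65075565). Bard1, Blm and Fancg are on the minus strand, the others on the plus strand.
Bard1: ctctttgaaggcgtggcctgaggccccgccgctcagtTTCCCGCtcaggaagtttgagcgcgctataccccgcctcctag
Blm: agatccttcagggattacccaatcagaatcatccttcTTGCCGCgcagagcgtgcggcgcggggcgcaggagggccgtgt
Fancb: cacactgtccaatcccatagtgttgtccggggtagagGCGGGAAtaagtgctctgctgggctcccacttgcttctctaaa
Brca2: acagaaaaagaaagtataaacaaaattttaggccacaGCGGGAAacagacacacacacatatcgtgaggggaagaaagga
Fancg: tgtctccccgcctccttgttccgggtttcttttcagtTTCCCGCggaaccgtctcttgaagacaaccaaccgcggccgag
Fancm: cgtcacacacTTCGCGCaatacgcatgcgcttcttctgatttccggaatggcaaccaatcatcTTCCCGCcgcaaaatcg

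For CCAAT and its reverse complement, the 120 bases before the start are printed in the same way, with CCAAT matches in capitals, for 4 members at least 2-fold lower in DPCs (Rad54l on chr4:116123691-116123810, Rad51ap1 on chr6:126939588-126939707, Brip1 on chr11:86201194-86201313 and Fanca on chr8:123318577-123318696) and for Xrcc3 (chr12:111813880-111813999), which was not. All 5 are on the minus strand, and in Xrcc3 a pair of matches on opposite strands abut.
Rad54l: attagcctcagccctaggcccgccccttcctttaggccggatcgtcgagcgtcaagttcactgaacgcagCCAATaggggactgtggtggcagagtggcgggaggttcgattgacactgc
Rad51ap1: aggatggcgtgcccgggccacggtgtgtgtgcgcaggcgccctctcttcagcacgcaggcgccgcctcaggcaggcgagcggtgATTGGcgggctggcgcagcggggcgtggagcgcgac
Brip1: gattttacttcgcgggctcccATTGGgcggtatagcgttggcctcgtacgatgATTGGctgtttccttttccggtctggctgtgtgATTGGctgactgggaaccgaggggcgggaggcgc
Fanca: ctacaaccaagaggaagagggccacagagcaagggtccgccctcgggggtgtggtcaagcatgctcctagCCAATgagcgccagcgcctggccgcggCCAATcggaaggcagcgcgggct
Xrcc3: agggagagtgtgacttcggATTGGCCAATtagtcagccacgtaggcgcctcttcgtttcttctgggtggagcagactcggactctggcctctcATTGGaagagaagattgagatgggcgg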

How the data were processed

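RNA was sequenced from DPCs and DSCs at passage 3 and passage 9, 1 library per group. Per the study's methods, mRNA was selected with poly-T beads and sequenced as read pairs on an Illumina instrument, while the labels name another library kit. The authors deposited raw counts per Ensembl gene and, for each library, FPKM that they normalized for transcript length and depth. The submitters' processing notes name Bowtie 0.12.2 and the builds mm8 and mm9, with no role given, whereas the deposited positions of 28 of the 30 members equal those of GENCODE M21 on GRCm38. The counting program and its use of strand are not given in the sources used here. Exons of 17 members share bases with a gene on the other strand and those of 2 with one on the same strand, so these counts are uncertain. Genes with 2 counts outnumbered those with 3 (1339 against 583 in low-passage DPCs), a pattern that arises where both mates of a pair are counted, so intervals were also computed on halved counts.

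Counts were scaled by TMM in edgeR 4.0.16 (R 4.3.3), and changes are on the log2 CPM scale, where 2 reads were added as prior count. Clopper-Pearson intervals cover counting error only. Intervals for differences of changes and for ratios are normal approximations from the counts. The additive model used edgeR's quasi-likelihood test, with DESeq2 1.42.0 as the alternative, and the scripts were tested on simulated data. Genes that are no members were named by rule: Mki67, Top2a, Pcna and Mcm2, and the 2 lowest and 2 highest by mean change of the other recombination and the end joining lists. Some items that the rule names are not reported here. Eme2 and the partner ratios were chosen after their values were seen. Members and lists were chosen with earlier results of these data known. Promoter windows are from RefSeq (GRCm38.p6).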

Additional observations from a re-analysis of the deposited data

Results flagged for a closer look

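Members whose change with passage had opposite signs in DPCs and DSCs numbered 5 of 30. The difference between the cell types was not tested, since each group had 1 library. The changes in DPCs minus those in DSCs were 0.83 for Fancf (counting interval 0.45 to 1.20), 0.75 for Slx4 (0.58 to 0.92), 0.40 for Msh6 (0.24 to 0.56), -0.27 for Fancm (-0.52 to -0.01) and -0.20 for Fance (-0.45 to 0.05). For Slx4 and Msh6 the intervals of the separate changes lay on opposite sides of 0, for Fancf and Fancm 1 of the intervals included 0, and for Fance both did. On halved counts the DSC intervals of Slx4 and Fancm also included 0, as did the interval for the difference of changes of Fancm. No change of these genes reached 2-fold in either cell type. With the deposited FPKM the change of Slx4 was 0.02 in DPCs and -0.40 in DSCs, those of Fance were 0.12 and -0.02, and those of Fancm -0.13 and -0.33.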

How the results depend on the processing

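The medians and counts were recomputed under other scalings, prior counts and filters, on the deposited FPKM, on halved counts and with DESeq2. Of 98 such values 91 moved by less than the typical counting error of a member (medians) or by at most 1.5 times (counts). With FPKM (pseudocount 0.1), 4 members in place of 7 were 4-fold lower in DPCs and 0 in place of 1 in DSCs and in both, and a prior count of 10 also gave 0 in DSCs and in both. The DESeq2 test called 8 members for passage where edgeR called 0. Among the 13 members with no shared exonic base, an alternative added after seeing the data, the median in DPCs was -1.52. The causes were not tested, except that this last value comes from fewer genes. The count of members 2-fold lower was 17 in DPCs under each of 8 alternatives, 8 to 10 in DSCs and 8 to 9 in both. No change past 2-fold turned its sign. FPKM turned smaller ones for Atr in DPCs (from -0.18 to 0.63), Fance in both and Fancm in DSCs, and put 9 members in DPCs and 7 in DSCs outside their counting intervals. With halved counts, 24 intervals in place of 27 excluded 0 in DPCs and 23 in place of 27 in DSCs. No paired analysis was possible because the labels carry no replicate numbers to pair by, although the additive fit compares passages within each cell type. With 1 library per group no replicate could be left out. Depth limits the genes with fewest counts, such as Rad51b and Eme1, whose intervals are widest.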
